A study of Mus musculus with 9 samples.

Results

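The genes examined here make up the LIM kinase and cofilin pathway, measured as midbrain mRNA in mice with and without DJ-1. The members were taken by gene symbol from a given list and were *Limk1*, *Limk2*, *Cfl1*, *Cfl2*, *Ssh1*, *Ssh2*, *Ssh3*, *Pak1*, *Rock1* and *Rock2*, which are 10 of the 26602 genes with a count in any library. All 10 had a count in every library, and each had more than 3 counts in each of the 9 libraries. The data were 3′ mRNA libraries of midbrain tissue including the substantia nigra, counted by unique molecular identifier (UMI), from 4 wild-type mice (labelled WT, here DJ-1+/+) and 5 mice lacking DJ-1 (labelled DJ-1 KO, here DJ-1-/-). The mice were 3 to 4 months old, had been given no treatment, and each gave 1 library. The DJ-1-/- line was backcrossed to C57BL/6 and bred from heterozygous parents, so that all tissues carry the targeted allele, and the labels give no sex. The comparison asked which genes differ between the genotypes at an age before motor signs.

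LIM kinases are the step before cofilin and the actin filament. The kinases ROCK1 and ROCK2, and PAK1 on a signal from Rac and Cdc42, phosphorylate and activate LIMK1 and LIMK2, which in turn phosphorylate cofilin and stop it from binding and severing actin. Slingshot phosphatases remove that phosphate and switch cofilin on again, a cycle that shapes growth cones, dendritic spines and axons in neurons. Much of this control is by phosphorylation, which mRNA counts do not measure.

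The library totals were 841974, 879901, 859549 and 886085 counts in DJ-1+/+ replicates 1 to 4 and 999042, 1098125, 969376, 967751 and 1026201 in DJ-1-/- replicates 1 to 5. Every DJ-1-/- library was deeper than every DJ-1+/+ library, so depth and genotype cannot be told apart in the counts, and levels are given as cpm, which scales each library to a total of 1000000 counts. *Park7*, the gene of DJ-1, checked the labels at 157, 119, 131 and 133 cpm in the DJ-1+/+ libraries and 23.0, 26.4, 14.4, 19.6 and 18.5 cpm in the DJ-1-/- libraries. The groups were far apart, with a log2 fold change (DJ-1-/- over DJ-1+/+) of −2.71 ± 0.15 (SE) and an adjusted p of 7.39e-08 in edgeR's quasi-likelihood test over 18127 genes, lower in 5 of 5 DJ-1-/- libraries. The DJ-1-/- libraries kept 14 to 29 *Park7* counts each, and which exons the targeting removed is not given in the sources used here.

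Several libraries stood apart in markers of tissue next to the midbrain. The summed level of 8 choroid plexus markers, of which *Ttr* was the most abundant, was 341, 110, 102 and 746 cpm in DJ-1+/+ replicates 1 to 4 and 101, 200.3, 167, 83.7 and 181 cpm in DJ-1-/- replicates 1 to 5. The summed level of 8 cerebellar markers, of which *Zic1* was the most abundant, was 1375 cpm in DJ-1+/+ replicate 1 and between 497 and 690 cpm in the other 8 libraries. *Gabra6*, which marks cerebellar granule cells and is named after its values were seen, had 102 counts in DJ-1+/+ replicate 1 and 0 to 2 counts elsewhere. The 10 dopaminergic markers, led by *Aldh1a1*, summed to 790, 1039.9, 643 and 557.5 cpm in the DJ-1+/+ libraries and 906, 992, 935, 1089 and 815 cpm in the DJ-1-/- libraries. So DJ-1+/+ replicate 4 was highest in choroid plexus markers and lowest in dopaminergic markers, although *Th*, *Slc6a3* and *En1*, which define midbrain dopaminergic neurons and were picked for that, had at least 30, 20 and 9 counts in every library. *En1* in DJ-1+/+ replicate 4 was at 9 counts, against 49 to 104 elsewhere. *Pitx3*, also of that list, was at 0 in DJ-1+/+ replicates 3 and 4 and at or under 3 counts in 8 libraries. The X-linked *Xist* also split the libraries, with 0, 160, 146 and 1 counts in DJ-1+/+ and 159, 193, 148, 165 and 2 in DJ-1-/-. The Y-linked *Ddx3y* was its mirror image, with 121, 0, 1 and 113 counts in DJ-1+/+ and 4, 0, 1, 0 and 152 in DJ-1-/-. By these genes 2 of 4 DJ-1+/+ and 1 of 5 DJ-1-/- libraries have the pattern of males, so *Xist* as a covariate below stands for sex, which in DJ-1+/+ splits replicates 1 and 4 from 2 and 3. In bulk tissue, fewer cells of a type and less RNA per cell cannot be told apart.

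A 3′ library counts an mRNA at its end, whatever its length, so cpm can be set side by side between genes without a length correction. Over the 9 libraries *Pak1* had the highest mean level of the members, 202 ± 26.9 cpm (SD, n = 9), and *Rock2* followed at 191 ± 21.9 cpm. These 2 did not differ beyond their spread, since *Pak1* was the higher in 5 of 9 libraries. *Cfl1* at 153 ± 7.44 cpm, *Rock1* at 149 ± 12.5 cpm and *Cfl2* at 149 ± 8.92 cpm came next, and their means lay within 1 SD of each other. All of these were above *Limk2* at 125 ± 9.40 cpm and *Limk1* at 121 ± 16.4 cpm, which again lay within 1 SD of each other, while *Cfl2* was above *Limk2* in 8 of 9 libraries. The slingshot genes had the lowest means, with *Ssh2* at 107 ± 6.75 cpm, *Ssh1* at 93.4 ± 10.1 cpm and *Ssh3* at 17.3 ± 5.82 cpm, and the step from *Ssh1* down to *Ssh3* was the same way in 9 of 9 libraries. *Limk1* was above *Ssh2* in only 6 of 9 libraries, within its own SD, and *Ssh2* above *Ssh1* in 7. These levels lie in a narrow table: 7388 genes with a mean of 50 to 250 cpm held 77.6% of all counts, only 180 genes were above 250 cpm, and the most abundant gene, *Gm42418*, had 0.126% of the counts. Whether counts at this level stay in proportion to mRNA was not tested, so ratios of levels between genes, such as cofilin over LIM kinase, and the fold changes between genotypes with their intervals may all be compressed.

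*Limk1* encodes a kinase that phosphorylates cofilin and is abundant in the nervous system; the gene lies on the minus strand of chromosome 5 (GRCm38 chr5:134656039-134688598). Its level was 127, 133, 156 and 104 cpm in DJ-1+/+ replicates 1 to 4 and 123, 121, 107, 112 and 107 cpm in DJ-1-/- replicates 1 to 5. The highest 3 values were all DJ-1+/+, but so was the lowest, replicate 4, so the groups overlapped over the whole DJ-1-/- range. The means were 130 ± 21.4 cpm (SD, n = 4) and 114 ± 7.60 cpm (SD, n = 5), and their difference gave p = 0.159 in an exact permutation test (two-sided). In edgeR the log2 fold change was −0.18 ± 0.10 (SE), with an unadjusted p of 0.0849 and an adjusted p of 1. The 95% interval ran from −0.40 to 0.03, which as counted is a level in DJ-1-/- between 0.759 and 1.02 times that in DJ-1+/+.

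The *Limk1* value turned on the DJ-1+/+ libraries. Without DJ-1+/+ replicate 4, the library highest in choroid plexus markers, the log2 fold change was −0.28 with an unadjusted p of 0.00893 in edgeR, and the exact permutation test gave 0.0357, the smallest p it can give with 3 against 5 libraries. Without DJ-1+/+ replicate 3, which had the highest *Limk1*, the log2 fold change was −0.09 with an unadjusted p of 0.386. With DJ-1+/+ replicates 1 and 4 both left out it was −0.34 (unadjusted p = 0.00658), and with *Xist* (log2 cpm) as covariate it was −0.25 (unadjusted p = 0.0202). The adjusted p of every member stayed at 0.86 or above in all alternatives, and the value of *Limk1* was negative in all 19. An antisense gene, *Gm10369*, overlaps *Limk1*. The strand setting of the counting is not given in the sources used here, so whether reads of the pair were counted apart is not known. *Limk2*, *Cfl1*, *Cfl2*, *Ssh2*, *Ssh3*, *Rock1* and *Rock2* also overlap other annotated genes.

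*Limk2*, the more widely expressed LIM kinase, lies on chromosome 11 (chr11:3344256-3409189, minus strand). It measured 110.5, 128, 119 and 131 cpm in the DJ-1+/+ libraries and 117, 115, 131, 132 and 137 cpm in the DJ-1-/- libraries. The groups shared most of their range, and the DJ-1+/+ library lowest in *Limk1* was the highest of its genotype in *Limk2*. The means were 122 ± 9.40 and 127 ± 9.99 cpm (SD, n = 4 and 5; exact permutation p = 0.476), and the edgeR log2 fold change was 0.05 with a 95% interval from −0.13 to 0.23. The ratio of *Limk1* to *Limk2* counts within a library, which does not depend on depth, was 1.15, 1.04, 1.31 and 0.793 in DJ-1+/+ and 1.05, 1.06, 0.819, 0.844 and 0.780 in DJ-1-/-. Its means were 1.07 ± 0.219 and 0.910 ± 0.133, and the groups overlapped, with DJ-1+/+ replicate 4 again among the low values.

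*Cfl1* encodes the cofilin of non-muscle cells, the main substrate of the LIM kinases, and lies on chromosome 19 (chr19:5490455-5495201, plus strand), where *Snx32* overlaps it on the other strand. It measured 143, 148, 164 and 155 cpm in the DJ-1+/+ libraries and 150.1, 158, 145, 154 and 163 cpm in the DJ-1-/- libraries. The DJ-1-/- values all fell inside the DJ-1+/+ range. The means, 152 ± 9.30 and 154 ± 6.65 cpm, differed by 1.74 cpm (exact permutation p = 0.746, n = 4 and 5), and the edgeR log2 fold change was 0.02 with an interval from −0.14 to 0.17. *Cfl2*, the cofilin best known from muscle, which these libraries held at a similar level, measured 159, 141, 154 and 131 cpm in the DJ-1+/+ libraries and 153, 156, 145, 146 and 155 cpm in the DJ-1-/- libraries. Here too every DJ-1-/- value lay inside the DJ-1+/+ range, and the means were 146 ± 12.7 and 151 ± 5.03 cpm (exact permutation p = 0.429, n = 4 and 5). The log2 fold change of *Cfl2* was 0.05, with an interval from −0.11 to 0.21. As counted, the intervals of the cofilins are a level in DJ-1-/- from 0.91 to 1.13 times that in DJ-1+/+ for *Cfl1* and from 0.927 to 1.16 times for *Cfl2*. Both intervals may be too narrow, for the reason given with the processing below. The within-library ratio of *Cfl1* to *Cfl2* counts was 1.05 ± 0.117 in DJ-1+/+, with a range from 0.896 to 1.18, and 1.02 ± 0.0328 in DJ-1-/-, with a range from 0.98 to 1.06.

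The slingshot phosphatases, which reactivate cofilin, had log2 fold changes of −0.01 (*Ssh1*), −0.02 (*Ssh2*) and −0.45 (*Ssh3*). *Ssh1* measured 90.3, 103, 101 and 80.1 cpm in the DJ-1+/+ libraries and 105, 93.8, 89.7, 100.2 and 77.0 cpm in the DJ-1-/- libraries. *Ssh2* measured 109, 113, 97.7 and 109 cpm in the DJ-1+/+ libraries and 103, 98.3, 116, 113 and 100.4 cpm in the DJ-1-/- libraries. For both genes the groups covered nearly the same range, with exact permutation p-values of 0.952 and 0.794 (n = 4 and 5) and intervals of the log2 fold change from −0.24 to 0.22 and from −0.20 to 0.16. *Ssh3*, the slingshot with the lowest counts, had 12, 21, 19 and 19 counts in DJ-1+/+ and 16, 27, 11, 13 and 9 counts in DJ-1-/-, or 14.3, 23.9, 22.1 and 21.4 cpm against 16.0, 24.6, 11.3, 13.4 and 8.77 cpm. Its 3 lowest values were DJ-1-/- libraries, but so was its highest, replicate 2. The means were 20.4 ± 4.23 and 14.8 ± 6.07 cpm (exact permutation p = 0.190, n = 4 and 5), and counting alone gives a relative error of 24.7% at this depth. In edgeR the *Ssh3* log2 fold change was −0.45 ± 0.30 (SE), with an unadjusted p of 0.147 and an interval from −1.08 to 0.18. Without DJ-1-/- replicate 2 it was −0.72 (unadjusted p = 0.0255), and with *Xist* as a covariate it was −0.64 (unadjusted p = 0.0484). The exact permutation p without DJ-1-/- replicate 2 was 0.0571. Over all alternatives the *Ssh3* value ran from −0.72 to −0.32, the latter without DJ-1-/- replicate 5 (unadjusted p = 0.296). The ratio of summed LIM kinase to summed slingshot counts, the opposing enzymes of the cofilin cycle, was 1.11, 1.09, 1.24 and 1.11 in DJ-1+/+ and 1.07, 1.09, 1.10, 1.08 and 1.31 in DJ-1-/-. The means were 1.14 ± 0.0696 and 1.13 ± 0.103, and the groups overlapped.

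Of the kinases that activate LIM kinases, *Pak1*, an effector of Rac and Cdc42 found at high levels in neurons, lies on chromosome 7 (chr7:97788541-97912381, plus strand). It measured 202, 191, 215 and 149 cpm in the DJ-1+/+ libraries and 226, 212, 170.2, 226 and 222 cpm in the DJ-1-/- libraries. In 4 of 5 DJ-1-/- libraries the values lay close together, 3 of them above every DJ-1+/+ library, while replicate 3 fell below 3 of the 4 DJ-1+/+ libraries. The means were 189 ± 28.6 and 211 ± 23.7 cpm (exact permutation p = 0.254, n = 4 and 5). The edgeR log2 fold change was 0.16 ± 0.11 (SE), with an unadjusted p of 0.142 and an interval from −0.06 to 0.39. It was 0.06 (unadjusted p = 0.551) without DJ-1+/+ replicate 4 and 0.23 (unadjusted p = 0.0285) without DJ-1-/- replicate 3. The exact permutation p without DJ-1-/- replicate 3 was 0.0571. DJ-1+/+ replicate 4, high in choroid plexus markers, was thus the lowest library for *Pak1* as for *Limk1* and *Cfl2* (131 cpm). It was also the lowest DJ-1+/+ library for *Ssh1* (80.1 cpm), but the highest for *Limk2* (131 cpm) and *Rock1* (164 cpm). The part of its tissue mix in any of these values was not tested.

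*Rock1* and *Rock2*, the genes of the ROCK kinases, lie on chromosomes 18 and 12. *Rock1* measured 153, 151, 144 and 164 cpm in the DJ-1+/+ libraries and 137, 136, 133, 168 and 156 cpm in the DJ-1-/- libraries. Its 3 lowest values and its highest were all DJ-1-/-, and the means were 153 ± 8.02 and 146 ± 15.4 cpm (exact permutation p = 0.429, n = 4 and 5). *Rock2* measured 183, 192, 183 and 191 cpm in the DJ-1+/+ libraries and 161, 186, 193, 244 and 190.0 cpm in the DJ-1-/- libraries. The DJ-1+/+ values of *Rock2* lay close together while the DJ-1-/- values spread to both sides of them, replicate 4 being the highest for *Rock1* and for *Rock2*. The *Rock2* means were 187 ± 5.01 and 195 ± 30.2 cpm (exact permutation p = 0.667, n = 4 and 5). The edgeR log2 fold changes were −0.07 (interval −0.25 to 0.11) for *Rock1* and 0.06 (interval −0.15 to 0.26) for *Rock2*, which became −0.05 without DJ-1-/- replicate 4. Within a library *Rock1* counts were 0.818 ± 0.0353 times those of *Rock2* in DJ-1+/+ and 0.756 ± 0.0750 times in DJ-1-/-, with ranges of 0.787 to 0.858 and 0.69 to 0.851.

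**Figure D1:**
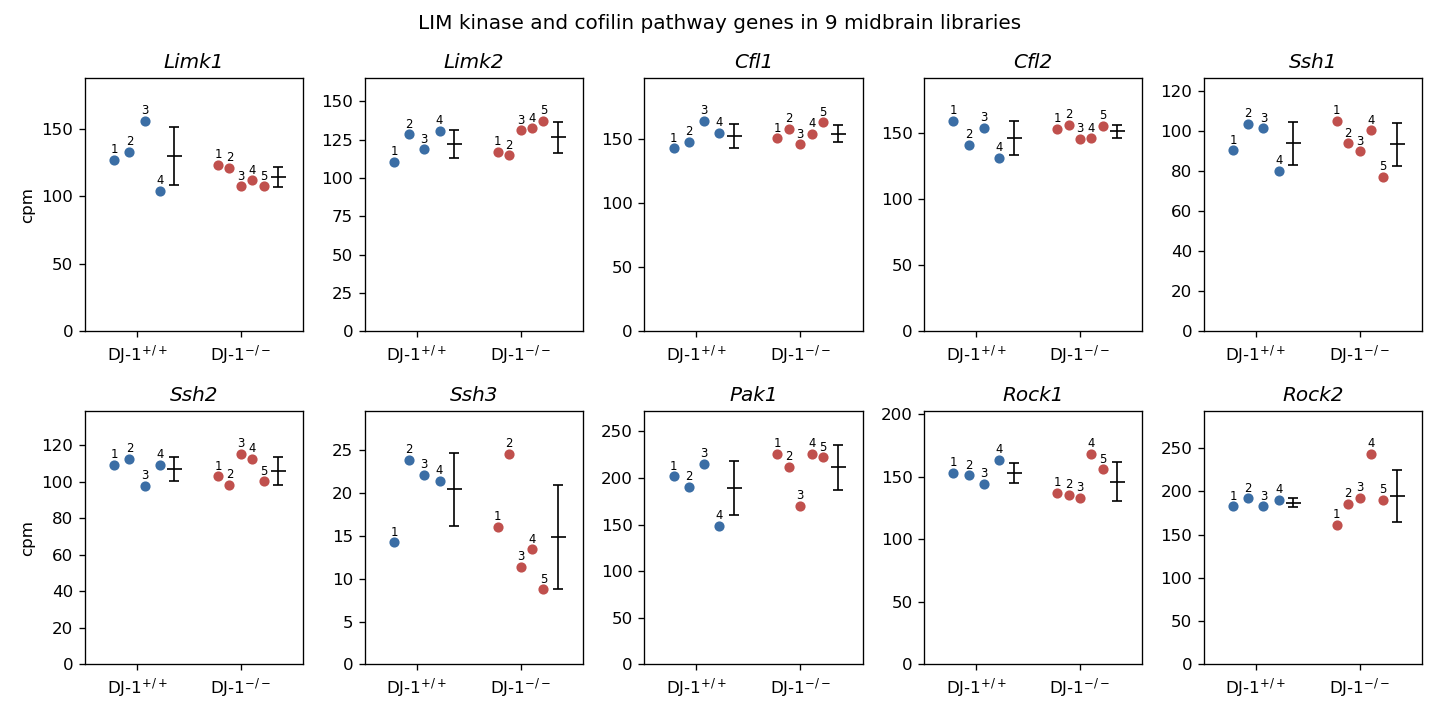
Level in cpm (vertical axes, each from 0) of the 10 pathway genes in each of 4 DJ-1+/+ (blue) and 5 DJ-1-/- (red) midbrain libraries. Points are single libraries with their replicate number, and the bar beside each group is the mean ± SD. The groups overlap for every gene. DJ-1+/+ replicate 4 is the lowest DJ-1+/+ library for *Limk1* (104), *Pak1* (149), *Cfl2* (131) and *Ssh1* (80.1), and the highest for *Limk2* (131) and *Rock1* (164).

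Across the members, 5 log2 fold changes were above 0 and 5 below, with a median of 0.0039, while the median of all 18127 genes tested was 0.0079. By edgeR's quasi-likelihood test 0 of the 10 members had an unadjusted p under 0.05, against 2.83% of all genes tested (513 of 18127). DESeq2 gave 0 of 10, against 1.3% of its genes (235 of 18114), and edgeR's likelihood ratio test gave 0 of 10, against 3% (543 of 18127). In other alternatives up to 2 members had an unadjusted p under 0.05. With *Xist* as covariate 2 did, against 446 of 18127 genes, and with counts thinned 1 did, against 506 of 17875. Leaving out libraries gave 1 without DJ-1+/+ replicate 4 (573 of 17861 genes), DJ-1-/- replicate 2 (338 of 17809) or DJ-1-/- replicate 3 (438 of 17801). Without DJ-1+/+ replicates 1 and 4 together 1 did, against 467 of 17571. No member had an adjusted p under 0.05, against 0.00552% of all genes tested, which was *Park7* alone. In none of the 10 were the cpm of the genotypes without overlap, against 1.25% of all genes tested (226). The smallest p the exact test can give with 4 against 5 libraries is 0.0159, so the design could have passed 0.05. For *Limk2*, *Cfl1* and *Ssh2* the spread between libraries was below the counting error in both genotypes (for *Cfl1* a coefficient of variation of 6.11% and 4.32% against a counting error of 8.30%), and the reason was not tested. For *Pak1*, with 15.1% and 11.2% against 7.22%, the spread was above it. No stretch of 50 bases within the final 400 bases of a member's longest coding transcript occurs in an annotated transcript of another gene.

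Around the members, 53 other genes of the pathway were taken in 6 lists, and all of them could be tested. In edgeR 22 were higher and 31 lower in DJ-1-/- by sign, with a median log2 fold change of −0.03. Of all 18127 genes tested, 9412 were higher and 8715 lower, with a median of 0.0079. 3 of the 53 had an unadjusted p under 0.05, all lower in DJ-1-/-, where 285 higher and 228 lower genes passed among all 18127 (256 higher and 280 lower with RLE size factors), and 0 of the 53 had an adjusted p under 0.05. The 3 were *Pak2* and *Cdc42bpg* of the 8 other PAK and MRCK kinases, and *Trio* of the 8 exchange factors and PAK adaptors.

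*Pak2*, the broadly expressed relative of *Pak1*, measured 147, 131, 143 and 121 cpm in the DJ-1+/+ libraries and 118, 105, 120, 118 and 127 cpm in the DJ-1-/- libraries. Its groups overlapped only through DJ-1+/+ replicate 4 and DJ-1-/- replicate 5, and the log2 fold change was −0.21 ± 0.09 (SE; unadjusted p = 0.0276, adjusted p = 1 in edgeR). *Cdc42bpg*, a Cdc42-binding kinase of the MRCK family, had 26, 17, 22 and 20 counts in DJ-1+/+ and 15, 23, 19, 14 and 15 in DJ-1-/-. At these low counts the log2 fold change was −0.53 ± 0.23 (SE; unadjusted p = 0.0350, adjusted p = 1 in edgeR). *Trio*, an exchange factor that activates Rac, measured 138, 105, 119 and 151 cpm in the DJ-1+/+ libraries and 104, 104, 115, 86.8 and 124 cpm in the DJ-1-/- libraries. Its 2 highest values came from DJ-1+/+ replicates 1 and 4, the libraries highest in choroid plexus markers, and the log2 fold change of −0.26 ± 0.12 (SE; unadjusted p = 0.0410, adjusted p = 1 in edgeR) was −0.06 (unadjusted p = 0.646) without those libraries. They are also the DJ-1+/+ libraries with 0 and 1 *Xist* counts, and the third highest *Trio* value was in DJ-1-/- replicate 5, which had 2. With *Xist* in the model the *Trio* log2 fold change was −0.14 (unadjusted p = 0.168), and the parts of *Xist* and of the choroid plexus markers in it cannot be told apart here. Each of the 3 lost its unadjusted p under 0.05 in several alternatives. Leaving out DJ-1+/+ replicate 1 was among them, with edgeR log2 fold changes of −0.16 for *Pak2* (unadjusted p = 0.0945), −0.40 for *Cdc42bpg* (unadjusted p = 0.125) and −0.23 for *Trio* (unadjusted p = 0.106). With DESeq2 the call was lost while the fold stayed about as large for *Pak2* (−0.22, unadjusted p = 0.0611) and *Cdc42bpg* (−0.55, unadjusted p = 0.0668). *Trio* passed with DESeq2 (−0.28, unadjusted p = 0.0397).

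No other gene of these lists had an unadjusted p under 0.05 in the main edgeR fit, and the ends of the lists were as follows. Among the 8 other PAK and MRCK kinases the highest was *Pak4* at 0.57 (interval −0.09 to 1.23), from a mean of 13.0 cpm in the DJ-1+/+ libraries and 19.4 cpm in the DJ-1-/- libraries. The *Pak4* value was 0.32 (unadjusted p = 0.280) without DJ-1+/+ replicate 2, 0.79 (unadjusted p = 0.0358) without DJ-1+/+ replicate 3 and 0.67 (unadjusted p = 0.0443) with the replicate block. *Bmpr2*, a receptor whose tail binds LIMK1, was the highest of the exchange factors and adaptors at 0.07 (interval −0.10 to 0.23), which became 0.0031 without DJ-1-/- replicate 4. In the list of 8 other cofilin family genes, kinases and phosphatases the lowest was *Dstn*, which encodes destrin, a close relative of cofilin, at −0.10 (interval −0.26 to 0.06), and the highest was *Tesk2*, a kinase that phosphorylates cofilin, at 0.24 (interval −0.42 to 0.90), which became 0.04 without DJ-1-/- replicate 1. *Pard3* was the lowest of 8 regulators of LIM kinase and cofilin at −0.17 (interval −0.34 to 0.00, unadjusted p = 0.0651 in edgeR). *Ywhaz*, a 14-3-3 protein, was the highest at 0.04 (interval −0.15 to 0.23). The *Pard3* value was −0.23 (unadjusted p = 0.0166) without DJ-1-/- replicate 4. It also passed 0.05 in edgeR with RLE size factors (−0.18, unadjusted p = 0.0497) and with counts thinned (−0.22, unadjusted p = 0.027).

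Downstream, the 11 partners of cofilin in actin turnover had a median log2 fold change of −0.05 and the 10 actins and ROCK substrates a median of −0.02. The lowest values were −0.14 for *Pfn1* (interval −1.11 to 0.83), which encodes the actin monomer binder profilin, and −0.18 for *Msn* (interval −0.45 to 0.08; −0.12 without DJ-1+/+ replicate 1), which encodes moesin. *Pfn1* was uneven within each genotype, with 47, 7, 43 and 37 counts in DJ-1+/+ and 50, 26, 50, 6 and 46 in DJ-1-/-. The low libraries, DJ-1+/+ replicate 2 and DJ-1-/- replicate 4, came from both groups. The highest fitted values belonged to *Coro1b* and *Actg1*, with 20 and 26 counts over all 9 libraries and 7 libraries each at or under 3 counts, so no fold change is given for them. *Actb*, the most abundant gene of its list, averaged 424 ± 14.7 cpm in DJ-1+/+ mice and 414 ± 15.2 cpm in DJ-1-/- mice (SD). The counts of *Actg1*, the gene of cytoplasmic gamma-actin, were therefore very low beside those of *Actb* in the same libraries, and the reason was not tested.

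**Figure D2:**
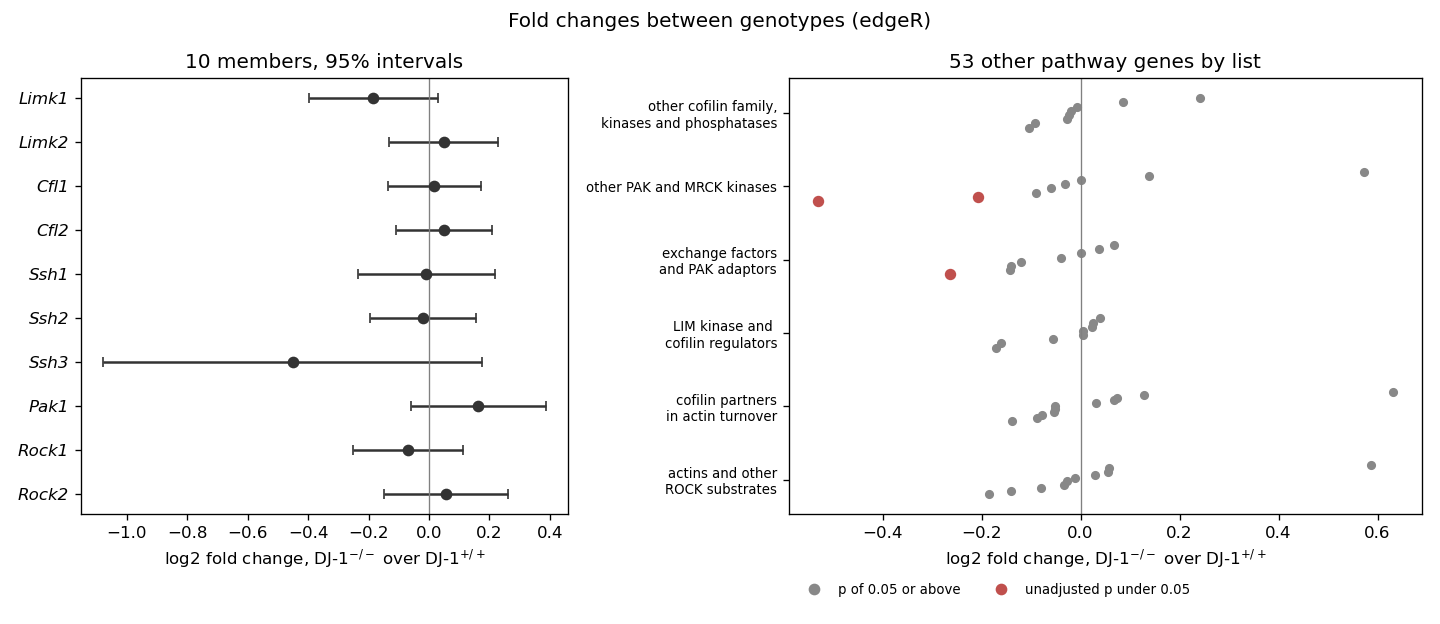
Left, log2 fold changes (DJ-1-/- over DJ-1+/+, horizontal axis) of the 10 members in edgeR with their 95% intervals, all of which include 0. Right, log2 fold changes of 53 other pathway genes by list, 1 point a gene, with the 3 genes with an unadjusted p under 0.05 (*Cdc42bpg*, *Trio* and *Pak2*) in red; the points furthest to the right include *Coro1b* and *Actg1*, which had 20 and 26 counts in all.

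The genes whose level followed *Limk1* most closely over the 9 libraries, among 10769 genes with at least 180 counts, were *Abraxas2*, *Prelid3b* and *Nudt22*, with Pearson correlations of log2(cpm + 1) of 0.964, 0.924 and 0.915. The Spearman correlations were 0.933, 0.867 and 0.883. *Abraxas2* measured 83.1, 85.2, 95.4 and 74.5 cpm in the DJ-1+/+ libraries and 82.1, 77.4, 72.2, 78.5 and 72.1 cpm in the DJ-1-/- libraries, so it shared with *Limk1* the high DJ-1+/+ replicate 3 and the low replicate 4. Without those 2 libraries, which lay farthest from the median of *Limk1*, the correlations were 0.933, 0.788 and 0.750 over 7 libraries. These are the highest of many correlations over few libraries and are given as a description, with no test. Among the members that could be compared, *Ssh1* had the highest correlation with *Limk1* (0.658, rank 382 of 10769) and *Limk2* the lowest (−0.595).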

How the data were processed

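The values analysed were UMI counts per gene that the authors deposited, 1 table per library, from Lexogen QuantSeq 3′ FWD libraries. The submitters' processing notes name fastp 0.20.0, STAR 2.7.3a, featureCounts 2.0.0 (Subread), UMI-tools 1.0.0 and GRCm38; their settings are not given in the sources used here. A gene absent from a table was taken as 0. Ensembl identifiers were named from GENCODE, which held 26576 of 26602. The genotypes were compared with edgeR 4.0.16 (quasi-likelihood, TMM, Benjamini-Hochberg over all genes with at least 10 counts in total, in R 4.3.3). The mean cpm of each member was compared by exact permutation, two-sided (SciPy 1.17.1), not adjusted. The edgeR code was also run on simulated counts, with changes larger than those of the members and no differences in tissue mix or sex. The 95% intervals use the fit's t quantile and an SE taken from the log2 fold change and F. For genes with little spread between libraries, the test's p can be larger than these intervals imply. *Pard3* had an upper end of 2e-04 at an unadjusted p of 0.0651 in edgeR. The intervals of such genes, among them *Limk2*, *Cfl1*, *Cfl2* and *Ssh2*, may thus be too narrow. Named were all members, *Park7*, pathway genes with an unadjusted p under 0.05 or at either end of their list, the most abundant gene of a marker list named, and the 3 genes most like *Limk1*. Outside that rule, *Actb*, *Xist*, *Ddx3y*, other markers, the most abundant gene and genes overlapping members are named as checks, with values seen. The members and lists were chosen with earlier results of these data known, and 1 pathway list is not reported here. Alternatives were other size factors, count filters, DESeq2 1.42.0, a likelihood ratio test, thinned counts, *Xist* as covariate, the replicate block and leaving out libraries. No 2 libraries of a genotype held copied counts (chi-square per degree of freedom at least 1.07 over 16 pairs). The check cannot tell whether 2 libraries were made from 1 sample.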

Additional observations from a re-analysis of the deposited data

Results flagged for a closer look

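*Pak1* in DJ-1-/- replicate 3 was at 170.2 cpm, far below the other 4 DJ-1-/- libraries, which lay between 212 and 226 cpm, for a gap larger than Dixon's limit for a group of 5. It was the only library to stand apart in 20 groups examined (10 members in 2 genotypes), and chance gives about 1 in 20.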

How the results depend on the processing

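Among all genes, the count with an unadjusted p under 0.05 was 513, of which 285 were higher and 228 lower. It was 802 with every gene that had a count and 235 with DESeq2 (106 higher, 129 lower), and ranged from 338 to 732 when libraries were left out in turn. The count with an adjusted p under 0.05 was 36 with every gene that had a count, 2 with the likelihood ratio test, and from 1 to 2 when libraries were left out. The count of members with an unadjusted p under 0.05 was 1 with counts thinned to the smallest library (*Limk1*, from 1 random draw; 506 of 17875 genes in all), 2 with *Xist* as covariate (*Limk1* and *Ssh3*; 446 of 18127), 1 without DJ-1+/+ replicates 1 and 4 together (*Limk1*; 467 of 17571), and from 0 to 1 when libraries were left out in turn. The cause was not tested. The log2 fold change of *Limk1* ran from −0.28 to −0.09 when single libraries were left out in turn. Members near 0 changed sign. Leaving out single libraries gave −0.0115 to 0.052 for *Cfl1*, −0.001 to 0.0936 for *Cfl2*, −0.0801 to 0.0457 for *Ssh1*, −0.0644 to 0.0096 for *Ssh2* and −0.0484 to 0.1131 for *Rock2*. In the exact permutation test these members had p from 0.286 to 0.964, 0.179 to 0.964, 0.571 to 0.943, 0.393 to 1 and 0.2 to 0.829. *Limk2* and *Rock1* kept their signs, from 0.0045 to 0.0855 and from −0.1361 to −0.0359 when single libraries were left out. Of other named genes, *Pfn1* ran from −0.485 to 0.1115 and *Ywhaz* from −0.0364 to 0.119 in the same way. Without DJ-1+/+ replicates 1 and 4 together, *Limk1* was −0.3355, *Cfl1* −0.0137, *Ssh1* −0.1338, *Ssh2* 0.0109, *Rock1* −0.015 and *Pfn1* 0.2866. *Pfn1* was 0.1241 with *Xist* as covariate, and *Ssh1* 1e-04 with every gene that had a count. With the replicate number as a replicate block, 571 genes had an unadjusted and 8 an adjusted p under 0.05, 0 members passed in edgeR, and *Cfl1* was −0.0075, *Ssh1* 0.0471 and *Ywhaz* −0.0025. The labels do not say that the numbers pair the mice. Deviations of same-numbered libraries correlated at 0.281, 0.0531, −0.0929 and −0.181. Replicate 1 matched its own number best and replicates 2 to 4 did not, and so few libraries cannot settle a pairing.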

Other observations

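Marker lists of cell types in and around the midbrain, tested in the same edgeR fit, differed in how many of their genes had an unadjusted p under 0.05, and in none of them did a gene have an adjusted p under 0.05. Of the 10 dopaminergic markers 4 passed, among them *Pitx3* with 16 counts in all, and all 10 were higher in DJ-1-/- by sign, with a median log2 fold change of 0.34. All 8 choroid plexus markers were lower by sign and 5 passed (median −1.63), and all 8 cerebellar markers were lower by sign and 4 passed (median −0.63). Over all 18127 genes tested, 513 had an unadjusted p under 0.05 and the median was 0.01. The cerebellar and choroid plexus calls were lost without 1 library each. Without DJ-1+/+ replicate 1, where *Gabra6* had 102 and *Pcp2* 79 counts against 0 to 2 elsewhere, 6 cerebellar markers could be tested, 0 passed and the median was 0.06. Without DJ-1+/+ replicate 4, 0 of 7 choroid plexus markers tested passed (median −0.87), and without replicates 1 and 4 together 0 of 6 did, with 3 higher and 3 lower (median −0.0021). Of the dopaminergic markers 0 passed without DJ-1+/+ replicate 4 (9 of 10 higher, median 0.20) and 0 with *Xist* in the model (10 of 10 higher, median 0.19). Without DJ-1+/+ replicate 1, 2 passed (10 of 10 higher, median 0.49), against 417 of 17881 genes. *Slc6a3* measured 36.8, 129.6, 23.3 and 30.5 cpm in DJ-1+/+ replicates 1 to 4, against 58.1 to 119 cpm in DJ-1-/-. With *Xist* in the model 2 choroid plexus markers (median −1.2) and 1 cerebellar marker (median −0.309) passed, against 446 of 18127 genes. Of the 8 genes in each remaining list, 0 oligodendrocyte, astrocyte, microglia or endothelial and mural markers passed, and 1 pan-neuronal marker did, higher in DJ-1-/-. Without DJ-1+/+ replicate 4, 2 microglia markers passed (6 of 8 higher by sign) and 0 pan-neuronal ones, against 573 of 17861 genes. Without DJ-1+/+ replicates 1 and 4 together 1 microglia marker passed, against 467 of 17571 genes. By sign 4 oligodendrocyte, 3 astrocyte, 6 microglia, 2 endothelial and mural and 4 pan-neuronal markers were higher, with median log2 fold changes of 0.0032, −0.02, 0.10, −0.04 and −0.01. The most abundant gene of a list did not always go with its median. *Cx3cr1* was at −0.14 (interval −0.31 to 0.03) in the microglia list, and *Mbp* was at −0.10 (interval −0.30 to 0.11) among oligodendrocyte markers. *Slc1a2* (astrocytes) was at −0.13, *Flt1* (endothelium) at −0.07 and *Nefl* (neurons) at −0.05, with intervals that include 0.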
